A study of Homo sapiens with 6 samples.

Results

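Peak lists of chromatin accessibility were examined at 9 genes that encode transcriptional regulators of the myeloid lineage: SPI1, CEBPA, CEBPB, CEBPD, CEBPE, IRF8, GFI1, ZEB2 and ID2. The genes were taken by name, as 9 of the 19974 protein-coding genes on chromosomes 1-22 and X. For each gene, the listed intervals of every library were collected within 1000 bp of either gene end, inside the gene, and out to 50 kb beyond it on build GRCh38. The assay was ATAC-seq, in which a transposase cuts and tags open DNA, so that a peak marks a stretch with more tagged fragments than the surrounding sequence. All libraries came from U937, a long-established cell line of human monocytic origin. In 3 ΔNSPs clones, which the series describes as independent, the 3 neutrophil serine proteases encoded by CTSG, ELANE and PRTN3 were depleted simultaneously after transduction of a ΔNSPs plasmid. The 3 control lines were transduced with control plasmids. Both groups were grown under geneticin selection, treated with DNase, washed and cryopreserved with DMSO before the assay. In such bulk libraries, fewer cells with an open site and less opening per cell cannot be told apart.

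PU.1, the ETS-family product of SPI1, and the basic leucine zipper proteins of the C/EBP family are the factors that set up and maintain the monocyte and granulocyte programmes, including the promoters of the azurophil granule proteases. IRF8 binds DNA together with PU.1 and favours monocytes, whereas C/EBP epsilon (CEBPE) and the zinc finger repressor GFI1 are known for their part in granulocyte maturation. ZEB2 is a zinc finger and homeodomain repressor, and ID2 lacks a DNA-binding domain and holds back basic helix-loop-helix factors by binding to them.

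The lists were very unequal in length, and this bears on every value below. ΔNSPs clones 1, 2 and 3 had 14262, 24981 and 2188 peaks on chromosomes 1-22, X and Y, against 13, 4 and 2 peaks in control lines 1, 2 and 3. A list holds no value where no peak was called, and read totals are not given, so a missing peak is not a measurement of closed chromatin. The lowest −log10 p in a list was 4.89, 4.86 and 5.75 in clones 1, 2 and 3 and 7.45, 7.79 and 8.0 in control lines 1, 2 and 3. Of the 63 peaks found at the 9 genes, 38 (60.3%) had a −log10 p of 8 or more. The share of all listed peaks at that cut was not computed. Listed markers of the monocytic line had a peak within 1000 bp of a gene end (a gene-end peak) in 2 or more clones, with no control line, at 4 of 12 genes (33.3%, beside 23.3% of all genes), namely CD68, ITGAM, TYROBP and PTPRC, with none in any clone at ITGB2, LYZ and MPO. The same held for 0 of 4 B cell markers, 1 of 4 T cell markers (CD3E) and 1 of 4 erythroid markers (KLF1). Counts under this rule do not tell the lineages apart. Taken singly, clones 1, 2 and 3 had a gene-end peak at 4, 9 and 1 of the 12 monocytic markers, beside 39.1%, 29.6% and 6.55% of all genes. Of 4 markers each, the B cell list had 0, 1 and 0, the T cell list 1, 1 and 0 and the erythroid list 1, 1 and 1. Differences between these short lists were not tested.

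Promoter sequences of 4 of the genes are shown first, 3 that peaks touched and 1 that they did not. RefSeq promoter windows (GRCh38.p14), which run from 250 bases before to 50 bases after a transcript start, were available for 7 of the 9 genes, as 11 windows. Peaks of at least 1 clone touched 5 of these windows, at 4 genes (CEBPA, CEBPB, GFI1 and ID2). All 5 were touched in clone 1, beside 23.5% of all windows in that clone. The share of all windows touched in at least 1 clone was not computed. The ID2 window was the one touched in 2 clones, 1 of 11 windows, beside 12.5% of all 34961 windows touched in 2 or more clones. The first sequence below gives the 250 bases before its transcript start (chr2:8681806-8682055, plus strand). Capitals there mark the 54 bases that lie inside the peaks of both clone 1 and clone 2.
ID2: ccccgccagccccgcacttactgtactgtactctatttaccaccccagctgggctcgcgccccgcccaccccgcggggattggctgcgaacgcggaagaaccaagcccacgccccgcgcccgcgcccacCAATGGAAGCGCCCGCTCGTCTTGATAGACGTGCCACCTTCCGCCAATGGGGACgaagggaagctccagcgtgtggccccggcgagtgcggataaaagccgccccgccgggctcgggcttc
In the other sequences capitals mark matches to 6 short motifs searched on both strands. For CEBPA the 250 bases before the start (chr19:33302535-33302784, minus strand) lie wholly inside a peak of clone 1. The GFI1 sequence (chr1:92486100-92486349, minus strand) belongs to the second of its 3 windows, at a start inside the gene, and also lies wholly inside a clone 1 peak. The CEBPE sequence (chr14:23119256-23119505, minus strand) is shown because no peak touched it, although a peak lay just upstream in 2 clones.
CEBPA: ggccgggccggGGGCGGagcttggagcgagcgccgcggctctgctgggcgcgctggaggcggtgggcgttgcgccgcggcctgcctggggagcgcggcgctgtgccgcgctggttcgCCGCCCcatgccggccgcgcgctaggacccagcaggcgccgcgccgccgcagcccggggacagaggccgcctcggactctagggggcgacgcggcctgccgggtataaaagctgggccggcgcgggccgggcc
GFI1: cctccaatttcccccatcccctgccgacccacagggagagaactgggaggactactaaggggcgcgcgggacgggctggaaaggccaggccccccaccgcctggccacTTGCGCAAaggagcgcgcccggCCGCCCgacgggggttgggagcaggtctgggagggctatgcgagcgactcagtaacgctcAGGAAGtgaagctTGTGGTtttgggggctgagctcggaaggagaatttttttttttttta
CEBPE: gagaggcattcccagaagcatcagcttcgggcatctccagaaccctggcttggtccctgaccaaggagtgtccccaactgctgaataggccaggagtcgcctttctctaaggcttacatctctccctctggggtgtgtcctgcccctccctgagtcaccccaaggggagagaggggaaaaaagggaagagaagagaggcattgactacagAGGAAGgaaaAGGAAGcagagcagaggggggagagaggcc

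The motifs were AGGAAG for PU.1 and other ETS factors, TTGCNNAA for C/EBP factors, TGTGGT for RUNX factors, AATCAC for GFI1, CACCTG for ZEB factors and the GC box GGGCGG. Among all 34961 promoter windows, 33.7% held AGGAAG, 10.4% TTGCNNAA, 13.1% TGTGGT, 10.2% AATCAC, 20.6% CACCTG and 45.0% GGGCGG. The GFI1 sequence held TTGCNNAA at 142 bases before the start, AGGAAG at 60 bases and TGTGGT at 47 bases, along with a GC box at 120 bases, and it was the only one of the 11 windows with the C/EBP motif. AGGAAG stood next to itself in CEBPE, at 40 and 30 bases before the start. CEBPA held GC boxes at 239 and 133 bases before its start and none of the other motifs. The windows of CEBPB, which overlap, held 6 and 5 GC boxes, with some boxes counted in both. The ZEB2 window held none of the 6 motifs. In ID2 the letters CCAAT, added to the search after the sequence had been seen and present in 34.6% of all windows, occurred 3 times, at 172, 122 and 78 bases before the start, and 1 of these matches lay wholly inside the 54 shared bases. These matches describe letters and are not binding sites.

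By base composition, the windows that peaks touched were not a uniform set. CEBPA had 80.7% G and C over its 300 bases, higher than 97.9% of all windows, and the touched window of CEBPB had 76.7%. ID2 had 69.0%, and the 2 touched windows of GFI1 had 59.7% and 66.7%, against a median of 58.7% over all windows. Untouched windows had 77.0% at the other start of CEBPB and 63.3% at the outermost start of GFI1. Those at CEBPE, IRF8 and ZEB2, with 49.0% to 57.7%, lay below that median and below every touched window. Both IRF8 windows belong to transcript starts inside the gene, at 85902830 and 85903015. No window covered the 5′ end of IRF8 at 85899162, so the sequence there was not read. Across all promoter windows in clone 1, peaks touched 1.26% of the windows with 47.0% or less G and C and 45.1% of those with 68.3% or more. In clones 2 and 3 the share was 1.44% and 0.261% for windows with 47.0% or less. It was 28.4% and 6.63% for those with 59.0% to 68.0%, and lower again, 21.2% and 5.20%, for those with 68.3% or more. Over all windows, peaks touched 23.5%, 16.0% and 3.52% in clones 1, 2 and 3 and 0% in each control line.

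At gene ends, the regulators had peaks in clones 1 and 2 and none in clone 3. In clone 1, 6 of the 9 genes (66.7%) had a gene-end peak (CEBPA, CEBPB, CEBPE, GFI1, ZEB2 and ID2), beside 39.1% of all protein-coding genes. In clone 2 it was 3 of 9 (33.3%, beside 29.6% of all), in clone 3 it was 0 of 9 (beside 6.55% of all), and in control lines 1, 2 and 3 it was 0 of 9 (beside 0.00501%, 0% and 0% of all). CEBPE, ZEB2 and ID2 had such a peak in 2 or more clones while no control line did, 3 of 9 genes, beside 23.3% of all genes. In all 3 clones it was 0 of 9, beside 5.40% of all genes. The count of 3 became 0 without clone 1 and 0 without clone 2, because clone 3 had no gene-end peak at any of the 9 genes. Each share rests on 9 genes. With a clone left out, the share of all genes was not computed, here or for the other peak positions below.

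Inside the genes, and away from their ends, peaks were listed at SPI1, GFI1 and ZEB2 in clone 1 (3 of 9, beside 14.8% of all genes), at SPI1, IRF8 and ZEB2 in clone 2 (3 of 9, beside 25.1%) and at SPI1 in clone 3 (1 of 9, beside 2.64%). Control lines 1, 2 and 3 had 0 of 9, beside 0.0200%, 0.00501% and 0% of all genes. SPI1 and ZEB2 had one in 2 or more clones, 2 of 9 genes, beside 11.0% of all genes, and that count was 1 without clone 1 and 1 without clone 2.

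**Figure D1:**
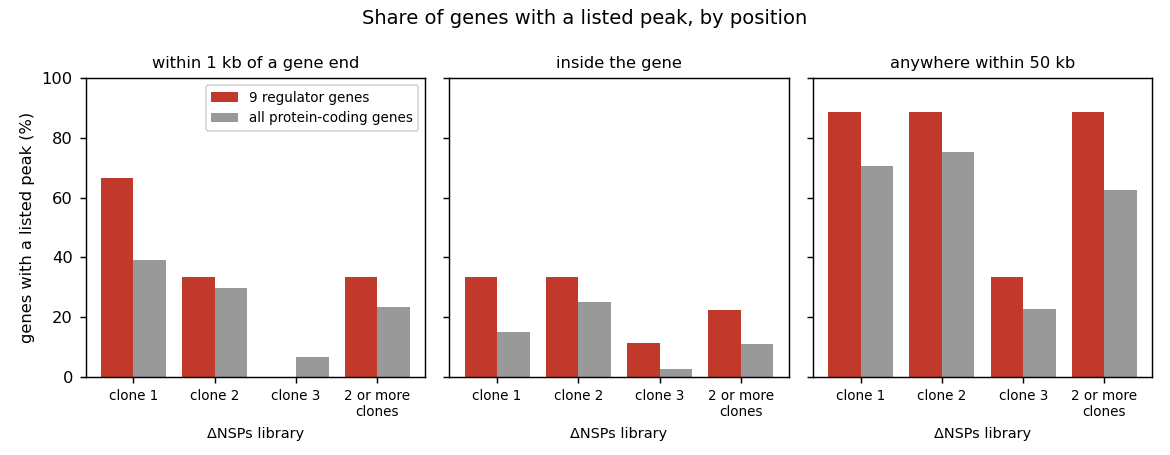
Percentage of genes with a listed peak in ΔNSPs clones 1, 2 and 3 and in at least 2 clones with no control line, by position of the peak (3 panels; red, 9 regulator genes; grey, 19974 protein-coding genes; vertical axis in percent from 0 to 100). The red bars lie above the grey ones except at gene ends in clone 3, where 0 of 9 genes had a peak, and each red bar rests on 9 genes.

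Within 50 kb, all of the 9 genes but CEBPD had a listed peak in 2 or more clones and none in control lines, 8 of 9, beside 62.5% of all genes. That count was 3 without clone 1 and 3 without clone 2. In clones 1 and 2 taken singly it was also 8 of 9, beside 70.5% and 75.4% of all genes. Clones 1, 2 and 3 had 27, 33 and 3 peaks at these genes, and the control lines had 0. Peaks of clone 3 lay at SPI1, CEBPB and CEBPE, 3 of 9 genes, beside 22.5% of all genes in that clone. The same 3 genes had a peak in all 3 clones, beside 21.1% of all genes. Genes with a peak within 50 kb in control lines 1, 2 and 3 were 0.0701%, 0.0100% and 0.0150% of all genes, so the absence of control peaks at the 9 regulators was shared with nearly every gene. Counted per gene, the largest number was at CEBPA, with 8, 4 and 0 peaks in clones 1, 2 and 3, a mean of 4.0 ± 4.0 (SD, n = 3), and 0 in each control line. CEBPE followed with 2, 8 and 1 peaks in clones 1, 2 and 3 (3.67 ± 3.79, SD, n = 3) and 0 in each control line. Neighbours in this order did not differ beyond the spread between clones. The window of ZEB2, a long gene, spanned 236 kb, against 101 to 124 kb for the others, and held 2, 3 and 0 peaks in clones 1, 2 and 3.

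**Figure D2:**
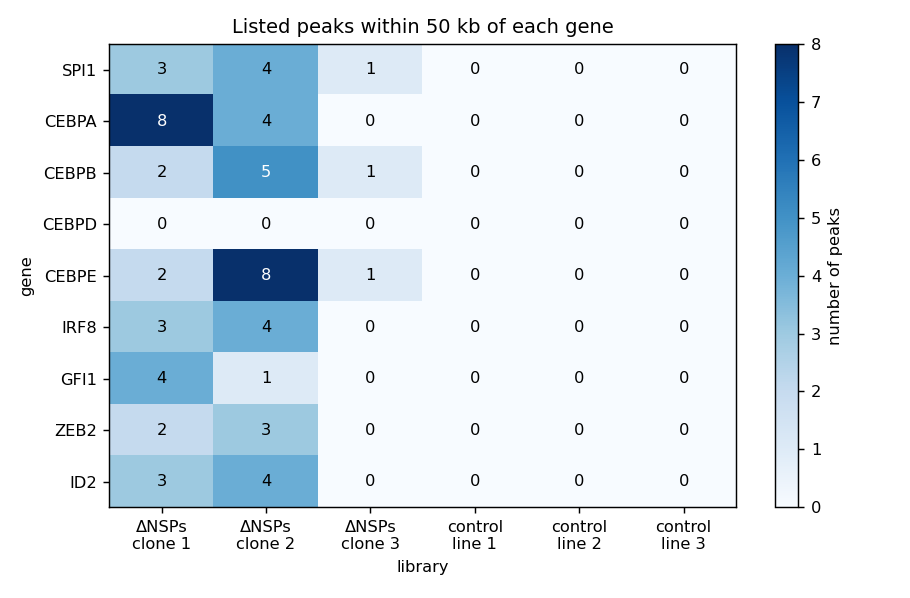
Number of listed peaks within 50 kb of each regulator gene (rows) in the 3 ΔNSPs clones and the 3 control lines (columns), with the colour scale running from 0 to 8 peaks. CEBPA in clone 1 and CEBPE in clone 2 have the most (8 each), CEBPD has 0 in every library and the control columns are 0 throughout.

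The number of peaks within 50 kb was set between the groups with a two-sided exact permutation test on log10(peaks + 1), run on every protein-coding gene. With 3 libraries against 3 the smallest p it can give is 0.1. SPI1, CEBPB and CEBPE, with at least 1 peak in every clone and 0 in every control line, had that value (exact permutation p = 0.1, Benjamini-Hochberg adjusted p = 0.475 over all genes). Their group differences were 0.534, 0.519 and 0.577 on the log10 scale. The same listing, which by itself gives this p, was found at 21.1% of all genes. CEBPA, IRF8, GFI1, ZEB2 and ID2, each without a peak in clone 3, had an exact permutation p of 0.4 (adjusted p = 0.640). CEBPD, at 0 in all libraries, had an exact permutation p of 1. No gene of the genome passed an adjusted p of 0.05 (0% of 19974), which 3 libraries against 3 cannot reach.

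SPI1 (chromosome 11, 47354860 to 47378547), which encodes PU.1, was the one regulator with a peak inside the gene in all 3 clones, beside 1.81% of all genes. The peak lay at 47359729 to 47359967 in clone 1, with a fold enrichment of 2.78, a −log10 q of 3.89 and an implied pile-up of 31 reads over a background of 10.5. In clone 2 it lay at 47359734 to 47359959 with a fold of 4.21, a −log10 q of 4.95 and 19 reads over 3.75, and it had 2 summits. Clone 3 had it at 47359822 to 47359967, with a fold of 2.76, a −log10 q of 2.81 and 30 reads over 10.2. The summits were 4985, 4900 and 5029 bp inside the lower-coordinate end of the gene in clones 1, 2 and 3. Counted from the strongest −log10 q, these peaks ranked 60.8%, 46.3% and 64.7% of the way down the lists of clones 1, 2 and 3. In clones 1 and 3 they were weaker than the list medians, which were 4.56 and 3.47 for −log10 q and 3.54 and 3.35 for fold. Neither end of SPI1 had a peak in any library. The −log10 p of 7.11 in clone 1 and of 6.88 in clone 3 was below 7.45, the lowest value listed in any control line, so no entry of a control list had a −log10 p as low as these.

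Farther from SPI1, a site at 47408166 to 47408556 was shared by clones 1 and 2, with folds of 4.86 and 4.13. It lay at an end of the long non-coding gene SLC39A13-AS1 in both clones, and its clone 1 interval came within 1000 bp of an end of SLC39A13, a zinc transporter gene, while the narrower clone 2 interval lay inside that gene. It was the strongest peak near SPI1 in both clones (−log10 q of 12.0 and 7.59). Clone 1 also had a peak at an end of PSMC3, a proteasome subunit gene, with a fold of 4.84. Clone 2 had single peaks inside MYBPC3 (fold 4.04) and inside SLC39A13-AS1 (fold 5.04), the second of them 10646 bp outside the higher-coordinate end of SPI1.

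CEBPA (chromosome 19, 33299934 to 33302534), whose product drives early granulocyte and monocyte commitment, had its peaks almost all on one side. Its promoter peak, at 33302411 to 33302831, was listed in clone 1 alone, with a fold of 2.51, a −log10 q of 4.88 and 46 reads over a background of 17.7. That peak also lay at an end of CEBPA-DT, the divergent long non-coding gene. The other 11 of the 12 CEBPA peaks lay downstream of the 5′ end, between 8752 and 47929 bp away. None of them touched another protein-coding or long non-coding gene. The region 33293387 to 33293818, about 9 kb downstream, was listed in clone 1 as an interval of 367 bp with a fold of 4.84 and a −log10 q of 9.49, and in clone 2 as a pair of intervals of 62 and 73 bp with folds of 3.42 and 3.48. A second shared site lay at 33254480 to 33254662, 47929 and 47909 bp downstream, with folds of 2.88 and 3.80 in clones 1 and 2. A myeloid enhancer of CEBPA is known on this side of the human gene. Near 42 kb, clone 1 had a peak at 33259600 to 33259791 (42793 bp downstream, fold 2.73) and clone 2 a separate, non-overlapping one at 33261017 to 33261097 (41482 bp, fold 4.33). Clone 1 alone had a broad interval of 693 bp with 5 summits at 33273621 to 33274313, with a fold of 3.88. Clone 3 had none of these, and its nearest peak to CEBPA was 2310 kb away.

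CEBPB (chromosome 20, 50190583 to 50192690) encodes the C/EBP member most tied to inflammatory gene expression in macrophages. Its gene-end peak was again in clone 1 alone, at 50190770 to 50191067, 399 bp downstream of the 5′ end, with a fold of 4.57 and a −log10 q of 4.90. That interval also lay within CEBPB-AS1, so reads cannot be given to either gene. The site with the highest fold of all 63 peaks was 31.0 kb downstream of the 5′ end, at 50221571 to 50221678 in clone 2 (fold 8.31, −log10 q 11.3, 18 reads over 1.29). Clone 3 had it too, at 50221605 to 50221730, with a fold of 4.79 and a −log10 q of 5.56, and clone 1 did not. It was the only shared site at the 9 genes that joined clones 2 and 3 without clone 1, and no protein-coding or long non-coding gene lay there. A site 36.7 kb upstream, at an end of PEDS1 and of the read-through gene PEDS1-UBE2V1, was shared by clones 1 and 2 at folds of 3.6 and 4.05. Clone 2 alone had peaks 43.5 kb upstream inside PEDS1 (fold 7.70, −log10 q 16.2), 30.7 kb upstream (fold 4.79) and at an end of LINC01275 (fold 4.20).

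CEBPD (chromosome 8, 47736913 to 47738164), an early-response member of the family, was the only regulator of the 9 with no peak within 50 kb in any of the 6 libraries. The nearest listed peak was 222, 125 and 4070 kb away in clones 1, 2 and 3. A peak in this range was listed at 70.5%, 75.4% and 22.5% of all genes in clones 1, 2 and 3.

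CEBPE (chromosome 14, 23117306 to 23119255), needed for the later steps of granulocyte maturation, had a peak just upstream of its 5′ end in 2 clones. It lay at 23120085 to 23120305 in clone 1, with a fold of 4.17, a −log10 q of 7.79 and 30 reads over 6.43. In clone 2 it was at 23120146 to 23120258, with a fold of 4.15, a −log10 q of 5.59 and 22 reads over 4.54. The summits were 907 and 954 bp upstream, both outside the promoter window printed above and inside the 1000 bp limit. The site that all 3 clones shared near CEBPE, at 23094742 to 23095533, was at the facing ends of ACIN1 and C14orf119, 21773 bp or more from CEBPE, where clones 1, 2 and 3 had folds of 3.97, 2.85 and 2.80. The other 6 peaks were in clone 2 alone. The strongest of them lay inside ACIN1 and at an end of the long non-coding gene LOC124903288 (fold 6.59, −log10 q 18.4), and 2 lay inside SLC7A8, an amino acid transporter gene (folds 4.07 and 3.16).

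IRF8 (chromosome 16, 85899162 to 85922609), the partner of PU.1, lacked a peak at both of its ends in all 6 libraries. Its strongest shared site lay 5823 bp beyond its 3′ end, at 85928432 to 85928755, and was nearly the same in both clones, at folds of 4.16 and 4.22 and −log10 q of 9.32 and 8.90 in clones 1 and 2. The summits were 4 bp apart, at 29448 and 29444 bp downstream of the 5′ end. No protein-coding or long non-coding gene of the annotation lay there. A second shared site, at 85943867 to 85943998, had folds of 3.71 and 3.16 and low −log10 q of 4.09 and 2.14 in clones 1 and 2. Clone 2 alone had a narrow peak of 74 bp inside IRF8 (fold 7.71, 14 reads over 0.946) and another at an end of LINC02132 (fold 7.37). Clone 1 alone had a peak 10.1 kb upstream (fold 4.41). Clone 3 had none, with its nearest peak 843 kb away.

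GFI1 (chromosome 1, 92473043 to 92486925), the zinc finger repressor, differed between clones 1 and 2 within the gene. Clone 1 had 3 weak peaks in the 5′ part of the gene, with folds of 3.58, 3.66 and 3.00 and −log10 q of 2.41, 2.53 and 2.80, the first and the last of which touched the promoter windows of its inner transcript starts. Clone 2 had none of the 3, although its list was the longer one. No peak touched the window at the outermost start in any library. Both clones shared a site 26.8 and 26.9 kb downstream of the 5′ end, at 92459930 to 92460279, beyond the 3′ end of the gene. The −log10 q there was 2.74 in clone 1 and 10.2 in clone 2, with folds of 3.05 and 4.91.

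ZEB2 (chromosome 2, 144384081 to 144520119) had its shared peaks far from its promoter. A site at 144382982 to 144383146, 940 and 935 bp beyond its 3′ end in clones 1 and 2, had folds of 2.37 and 3.15, −log10 q of 5.86 and 9.39, and pile-ups of 61 and 55 reads over backgrounds of 25.2 and 16.8. The background of 25.2 was the highest at any of the 63 peaks. Inside the gene, clones 1 and 2 shared a site at 144414571 to 144414842 with folds of 2.70 and 2.89. Clone 2 alone had another inside the gene, 63.4 kb from the 5′ end, with a fold of 3.02. All 5 ZEB2 peaks were below the median fold of their lists, which was 3.54 in clone 1 and 4.16 in clone 2.

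ID2 (chromosome 2, 8682056 to 8684461) had the promoter peak that clones 1 and 2 shared. In clone 1 it ran from 8681935 to 8682186 across the transcript start, with a fold of 2.18, a −log10 q of 2.37 and 36 reads over 15.9. In clone 2 it ran from 8681909 to 8681988, ending 68 bp before the start, with a fold of 2.40, a −log10 q of 5.14 and 54 reads over 21.9. The fold of 2.18 was the lowest of the 63 peaks, and the pile-ups were above the medians of 25 and 24 reads for the peaks of these genes in clones 1 and 2. The peak was also counted at an end of ID2-AS1. Clone 1 had a second gene-end peak beyond the 3′ end, of 589 bp with 2 summits, at 8685230 to 8685818 (fold 4.67, −log10 q 6.18), which clone 2 lacked. A site 37 kb upstream inside the long non-coding gene LOC105373411 was shared through an overlap of only the last bases of the clone 2 interval, with folds of 3.62 and 2.79. Clone 2 alone had peaks 12.3 kb downstream (fold 6.02, −log10 q 9.95) and 3.17 kb upstream, inside ID2-AS1 (fold 3.37).

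**Figure D3:**
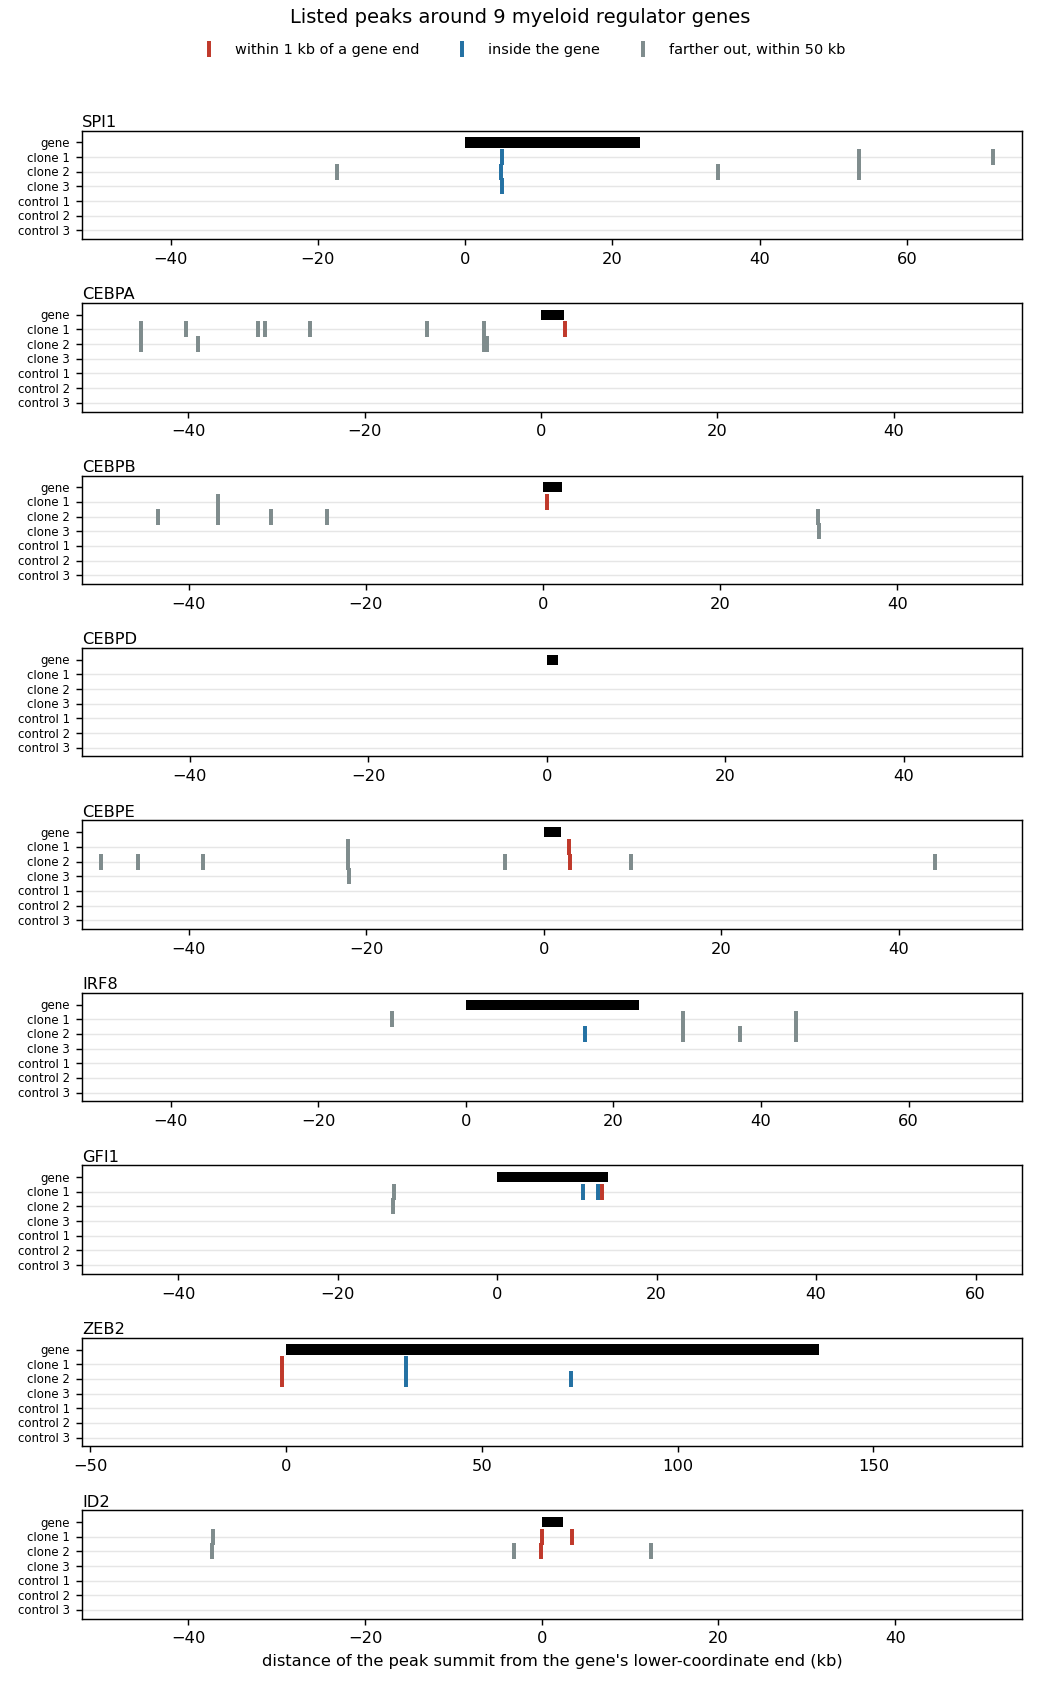
Positions of listed peaks around each gene in the 3 ΔNSPs clones (upper rows) and the 3 control lines (lower rows), as the distance of the summit from the gene's lower-coordinate end in kb. The black bar is the gene, red ticks are peaks within 1 kb of a gene end, blue ticks peaks inside the gene and grey ticks peaks farther out. SPI1 carries a blue tick in all 3 clones at about 5 kb, all CEBPA peaks but the clone 1 promoter peak lie to the left of the gene, CEBPD has none and the control rows are empty.

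Taking overlapping peaks as 1 site, the 63 peaks formed 45 sites, and 15 of these (33.3%) were listed in at least 2 clones, beside 20.9% of the 32822 regions of all lists. Those regions were not limited to the surroundings of genes, as the sites were, and a share for regions near genes was not computed. All 3 clones shared 2 sites, the one inside SPI1 and the one between ACIN1 and C14orf119, beside 3.82% of all regions. The other sites were in clone 1 alone (13) or clone 2 alone (17), and none was in clone 3 alone. Of 7 gene-end sites 3 were shared, of 6 gene-body sites 2, and of 32 sites farther out 10. Shares of all regions by position, or in a single clone alone, were not computed. Every regulator with peaks had at least 1 shared site, from 1 at GFI1 to 2 at the other 7 genes. At 38 of the 63 peaks no other protein-coding or long non-coding gene was within reach (inside it or within 1000 bp of its ends), and 14 peaks lay at an end of another gene.

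Set against all peaks of the same list, the median fold at the 9 genes was 3.62, 4.05 and 2.80 in clones 1, 2 and 3, against medians over all peaks of 3.54, 4.16 and 3.35. Above the list's own median were 17 of 27, 13 of 33 and 1 of 3 peaks in clones 1, 2 and 3. A fold of 5 or more was found at 7 peaks, all in clone 2, whose whole list also had the highest median fold. The share of all peaks with such a fold was not computed. Implied backgrounds at the 63 peaks ran from 0.878 to 25.2 reads. The median width was 258, 91.0 and 146 bp in clones 1, 2 and 3, close to that of all peaks in the same list (251, 99.0 and 171 bp).

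**Figure D4:**
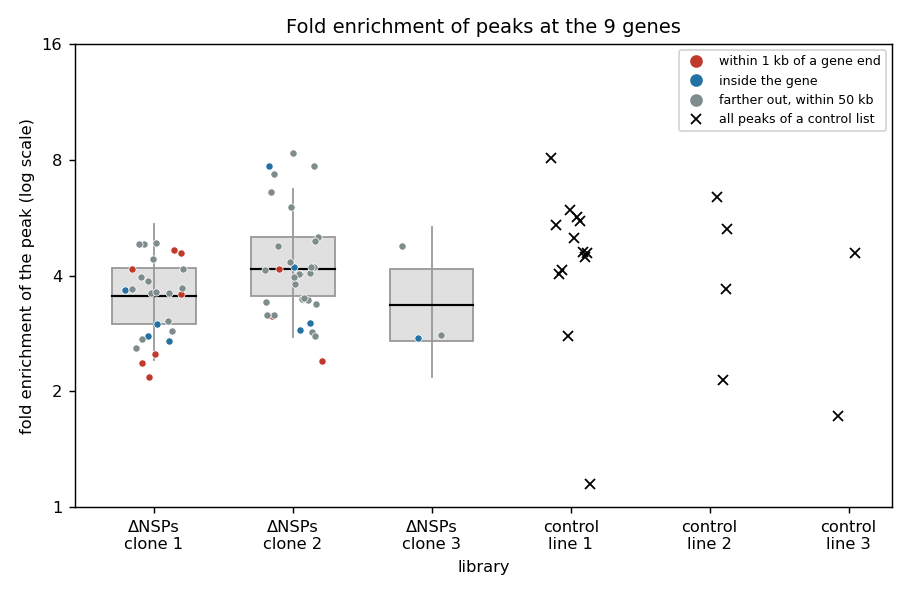
Fold enrichment of each peak within 50 kb of the 9 genes in ΔNSPs clones 1, 2 and 3 (points coloured by position, log scale), over the distribution of all peaks of the same list (box, quartiles; line, median; whisker, 5th to 95th percentile). Crosses show every peak of the 3 control lists, none of which lay at these genes. The points scatter around the list medians of 3.54, 4.16 and 3.35 in clones 1, 2 and 3.

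The limits of the search decided some of these classes. The peaks nearest to the 1000 bp limit on its inner side were those of ZEB2, 940 and 935 bp from the gene in clones 1 and 2, and those of CEBPE, 830 and 891 bp away. The summit of the clone 2 peak at ZEB2 was 1006 bp from the gene, so that with the summit required inside the limit ZEB2 had a gene-end peak in 1 clone and the count of genes was 2. With a limit of 500 bp, ID2 alone had a gene-end peak in 2 or more clones. Just inside the 50 kb limit was a CEBPE peak 49848 bp away in clone 2 (fold 3.96, −log10 q 2.06), and just outside it were CEBPA peaks 50.3 and 50.4 kb away in clones 1 and 2.

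The same rule was applied to related genes, known partners and targets. Among 9 relatives of these families, 3 (33.3%) met it, with a gene-end peak in 2 or more clones and none in a control line (SPIB, ID1 and ID3), beside 23.3% of all genes. ID1, a paralog of ID2, had one in all 3 clones, at folds of 2.71, 2.53 and 2.13, and ID3 had folds of 3.07 and 4.05 in clones 1 and 2. SPIC, IRF4, GFI1B and ZEB1 had none in any clone. Of the partner factors reported here, KLF4, EGR1, NAB2 and JUN met it, and CBFB, MYB, GATA2, EGR2 and TAL1 had none in any clone. EGR1, an immediate early factor that acts downstream of PU.1 in monocytes, had folds of 5.44, 4.14 and 2.71 in clones 1, 2 and 3. Among 25 targets of PU.1 or C/EBP factors, 4 (16.0%) met it (ITGAM, CYBA, TREM1 and TYROBP), and 11 had none in any clone, among them CSF2RA, FCGR1A, LYZ, MPO, ELANE and PRTN3. CTSG, which was depleted along with ELANE and PRTN3, had a gene-end peak in clone 2 alone, with a fold of 3.2. In clones 1, 2 and 3 taken singly, 6, 11 and 1 of the 25 genes had a gene-end peak, beside 39.1%, 29.6% and 6.55% of all genes. CSF1R, the receptor for macrophage colony-stimulating factor, had its gene-end peak in clone 2 alone, with a fold of 6.37.

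The gene-end pattern of CEBPE, ZEB2 and ID2, a peak in clones 1 and 2 and none elsewhere, was common, with 3366 other protein-coding genes listed in the same libraries. By the Euclidean distance of log2 folds over the 6 libraries, with 0 where no peak was listed, the genes nearest to CEBPE were HHEX (folds of 4.18 and 4.16 in clones 1 and 2) and RALGDS (4.15 and 4.22). Those nearest to ZEB2 were INPP1 (2.38 and 3.13) and ELK1 (2.34 and 3.16). For ID2, whose strongest gene-end peaks lay at its 3′ end in clone 1 (4.67) and at its 5′ end in clone 2 (2.40), they were RPL8 (4.63 and 2.40) and TOP2B (4.64 and 2.47).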

How the data were processed

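The authors deposited 1 peak list for each of 6 ATAC-seq libraries, with groups and replicate numbers taken from the sample titles. The submitters' processing notes name FastQC, Bowtie2, Picard, MACS2 and build GRCh38. Versions, settings and whether reads were shifted to the transposase cut site: not given in the sources used here. Peak names carry a single library each, so lists were made per library. Each summit has, as the authors' deposited values, a fold enrichment (a ratio over the local background), a −log10 p and a −log10 q, and a score derived from the −log10 q that was not used. Ranks and −log10 q were read only within a list.

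Lines sharing an interval were counted as 1 peak with its best summit, and a summit offset below 0 was set to 0. Positions are 1-based. A peak counted for a window when it overlapped it by 1 bp or more. Gene positions came from RefSeq (GRCh38.p14). Strand came from the promoter windows, of which those on chromosomes 1-22 and X were used. SPI1 and CEBPD, without a window, are given by coordinates. The implied pile-up and background were solved from fold, as (pile-up + 1)/(background + 1), and p, as a Poisson tail, and 100% of the 63 pile-ups came out whole within 0.05 reads. They are not library depths, which are unknown.

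Peak counts were compared with an exact two-sided permutation test, whose p measures only the spread between these libraries. Besides the 9, the text names genes that share a peak with them, genes of each list listed at their ends in all 3 clones or in no clone (up to 6 of each), and the 2 nearest patterns of each regulator. Other list genes, among them CSF1R, CTSG and those listed in 2 clones, were chosen after their values were seen. One gene of the partner list is not reported here, and no count is given for that list. The genes, lists and tests were chosen with earlier results of these data known. Alternatives covered peak strength, list length, windows, summit position, the number of clones and each library left out. Python 3.11.15, NumPy 2.4.6, pandas 2.3.3, SciPy 1.17.1 and matplotlib 3.10.9 were used.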

Additional observations from a re-analysis of the deposited data

How the results depend on the processing

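The counts of genes with a peak in at least 2 clones and no control line were 3 at gene ends, 2 in gene bodies and 8 within 50 kb. With a −log10 q of at least 5 they were 3, 0 and 7, and with a −log10 p of at least 8 they were 3, 1 and 7. With a fold of at least 5 each was 0. With clone lists cut to the 2188 strongest peaks of each they were 0, 0 and 3. A peak in 1 clone or more gave 6, 4 and 8, and a peak in all 3 clones 0, 1 and 3. An end window of 500 bp gave 1, one of 2500 bp gave 3, and the 5′ end alone gave 2 of the 7 genes with a known strand. With the summit required inside the window the 3 counts were 2, 2 and 8, and ZEB2 no longer met the gene-end rule. Windows of 25 and 100 kb both gave 8. Leaving out a clone gave 0 to 3, 1 to 2 and 3 to 8, with the lower values without clone 1 or without clone 2, where both remaining clones must share the gene. Leaving out a control line changed none of the 3 counts. Other causes of these changes were not tested. Among these alternatives, a share of all genes was computed only for a peak in all 3 clones. It was 5.40% at gene ends, 1.81% in gene bodies and 21.1% within 50 kb. For the other settings, whether the regulators moved differently from all genes was not tested.

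The correlation of same-numbered libraries' deviations over all regions was 0.00301, 0.00829 and -0.0318, but with 13, 4 and 2 control peaks it could not have shown a pairing. With the numbers taken as a block, the exact sign-flip p was 0.25 for SPI1, CEBPB and CEBPE, the smallest possible, 0.5 for the other genes with peaks and 1 for CEBPD. These values too follow only from the number of clones with a listed peak. Over all alternatives no permutation p was below 0.1. Depth is unknown, and the short control lists limit every comparison between groups.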
